A study of Mus musculus with 6 samples.

Results

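The vascular endothelial growth factor (VEGF) system was read here in 10 genes of DU145 xenograft tumours: the ligand genes VEGFA, VEGFB, VEGFC and PGF in the table of human genes, and the ligand gene Vegfa and the receptor genes Kdr, Flt1, Flt4, Nrp1 and Nrp2 in the table of mouse genes. They were chosen by name, with no measured value in the rule, out of 114420 named genes (58884 human, 55536 mouse), and all 10 passed the filter on low counts. Subcutaneous tumours of 2 groups were compared. The 3 Zelnorm tumours (MBZ_254, MBZ_257 and MBZ_259) came from male nude mice that received Zelnorm by mouth each day, and the 3 control tumours (NC10, NC4 and NC9) from male nude mice labelled control. Both groups carried the same human prostate cancer line, DU145. Zelnorm is a trade name of tegaserod, which activates the serotonin receptor HTR4. The labels give no dose and no age, and the titles of the treated group carry MBZ, which the sources used here do not explain. The model is 1 cell line in hosts without a thymus, so human RNA comes from the tumour cells, and vessels, fibroblasts and immune cells are mouse. No label says that each tumour came from its own animal, so a p-value covers the spread between these samples, which may be technical.

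VEGF-A, VEGF-B and placental growth factor (PGF) are secreted ligands of vessel growth and survival, and VEGF-C is the main growth factor of lymphatic vessels. VEGFR2, encoded by Kdr, carries most of the growth signal of VEGF-A in endothelium. VEGFR1, encoded by Flt1, binds VEGF-A, VEGF-B and PGF and has a soluble form that traps ligand, VEGFR3, encoded by Flt4, is the receptor of VEGF-C and VEGF-D, and the neuropilins Nrp1 and Nrp2 are co-receptors that also bind class 3 semaphorins. VEGFA is a classical target of the hypoxia-inducible factors. Human tumour ligands can act on mouse receptors in a xenograft, which is why both tables are read together here.

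The tables hold estimated counts per gene, and libraries totalled 24602178 to 39278195 counts in the human and 5817165 to 9228446 in the mouse table. Levels below are CPM, counts scaled to a common library total within 1 table (TMM), so a human and a mouse CPM are not on one scale. The human table held the epithelial keratins KRT8 at 2256 ± 197 CPM in Zelnorm tumours and 1951 ± 277 CPM in control tumours and KRT18 at 1382 ± 113 and 1230 ± 200 CPM in the same order (SD, n = 3 each). In the mouse table the T cell gene Cd3e had 44 counts in MBZ_254, 0 in MBZ_257 and 3 in MBZ_259, against 0, 4 and 3 in the controls NC10, NC4 and NC9. MBZ_254 thus stood apart for this T cell gene.

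Zelnorm and control tumours were not distinguishable in any of the 10 VEGF genes. edgeR's quasi-likelihood test with Benjamini-Hochberg adjustment over every tested gene of a table and a threshold of 0.05 called 0 of the 10 members, and 0 had an unadjusted p under 0.05. DESeq2 and limma-voom also called 0 of the 10. The same test called 0 of 18820 human genes (0%; 247 or 1.31% at an unadjusted p under 0.05, 0.749% higher and 0.563% lower in Zelnorm tumours; DESeq2 called 1, limma-voom 0) and 0 of 14459 mouse genes (0%; 253 or 1.75%, 0.719% higher and 1.03% lower; DESeq2 called 6, limma-voom 0). In 0 of the 10 members did the 3 Zelnorm tumours lie apart from the 3 control tumours, against 4.82% of all tested human genes (2.52% higher and 2.31% lower in Zelnorm tumours) and 5.52% of all tested mouse genes (2.52% higher and 3% lower). Single tumours differed within the groups, and for each gene other than VEGFC the highest or the lowest value lay in MBZ_254 or MBZ_257. These tumours were named after the values were seen. The share of all tested genes for which this holds was not counted, so it cannot be called particular to the members.

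**Figure D1:**
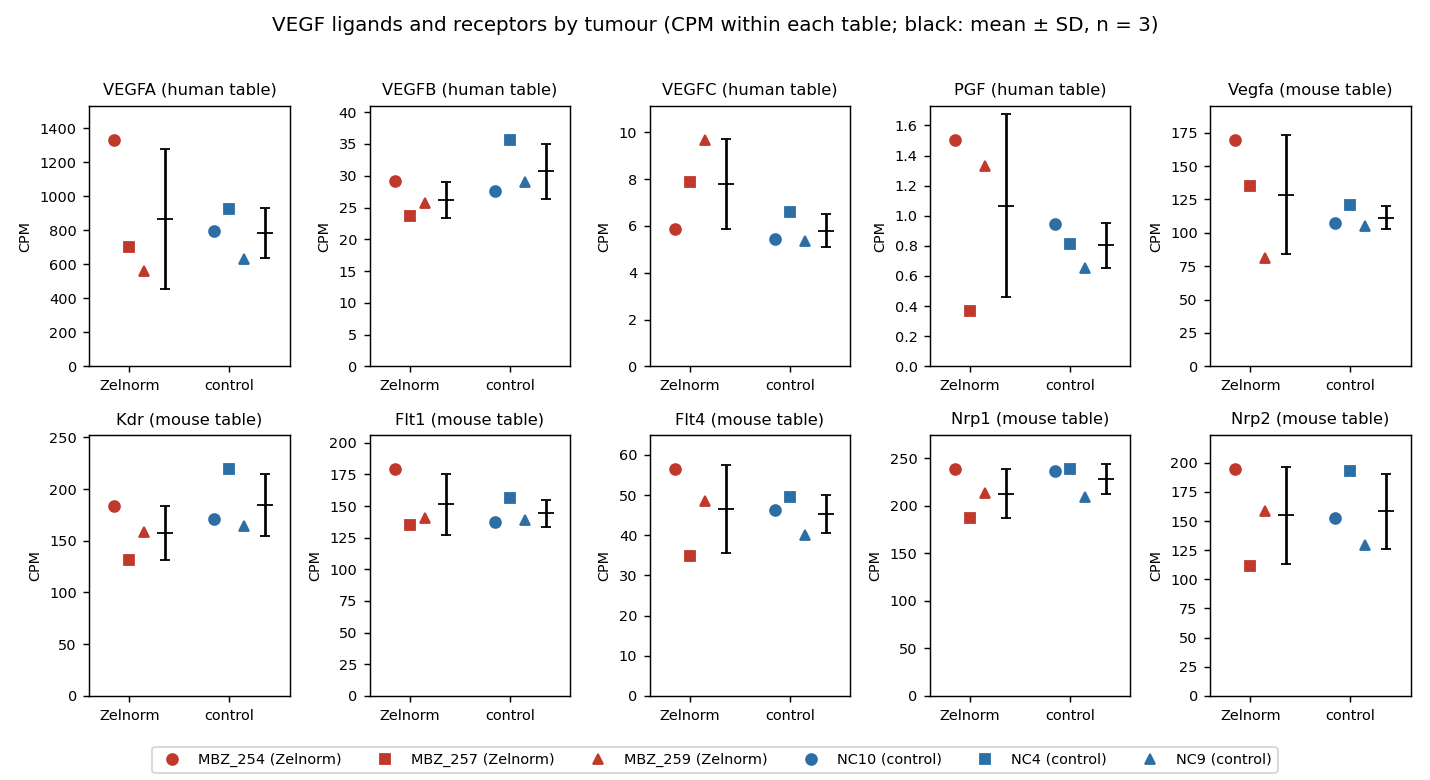
CPM of the 10 VEGF genes in each tumour (points; Zelnorm red at left, control blue at right) with mean ± SD (black, n = 3 each); each vertical axis starts at 0 and belongs to its own gene and table. The groups overlap in every panel, and the Zelnorm tumours spread more widely than the controls for VEGFA (561 to 1331 CPM) and Vegfa (81.0 to 169.7 CPM).

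VEGFA (ENSG00000112715), the ligand of VEGFR1 and VEGFR2, was at 1331 CPM in MBZ_254, 701 CPM in MBZ_257 and 561 CPM in MBZ_259, against 793 CPM in NC10, 923 CPM in NC4 and 630 CPM in NC9. The Zelnorm group thus held both the highest and the lowest tumour, with the 3 controls between them. Its mean was 865 ± 410 CPM in Zelnorm tumours and 782 ± 147 CPM in control tumours (SD, n = 3 each). The log2 fold change of Zelnorm over control was 0.14 (SE 0.28, 95% interval -0.49 to 0.78; edgeR adjusted p = 1.00). The sign rested on 1 tumour, since without MBZ_254 the log2 fold change was -0.31.

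VEGFB (ENSG00000173511), a ligand of VEGFR1 linked to fatty acid uptake by endothelium, was at 29.1, 23.6 and 25.8 CPM in MBZ_254, MBZ_257 and MBZ_259, against 27.5, 35.7 and 29.0 CPM in NC10, NC4 and NC9. The ranges overlapped, with 2 Zelnorm tumours below all controls. The log2 fold change was -0.23 (SE 0.15, 95% interval -0.56 to 0.09; edgeR adjusted p = 1.00), and it kept its sign with each tumour left out in turn (-0.31 to -0.11).

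VEGFC (ENSG00000150630), the lymphatic ligand of VEGFR3, had the smallest unadjusted p of the members. It was at 5.86 CPM in MBZ_254, 7.88 CPM in MBZ_257 and 9.69 CPM in MBZ_259, against 5.43 CPM in NC10, 6.61 CPM in NC4 and 5.37 CPM in NC9. A pair of Zelnorm tumours lay above all controls, and MBZ_254 lay among them. The log2 fold change was 0.43 (SE 0.21, 95% interval -0.04 to 0.91, unadjusted p = 0.0704; edgeR adjusted p = 1.00). With single tumours left out it ran from 0.25 without MBZ_259 to 0.60 without MBZ_254. VEGF-C is made as a precursor that proteases cut, and CCBE1, which promotes that step, had a log2 fold change of 0.70 (SE 0.35) in the human table, while PCSK5, a proprotein convertase, had one of -0.93 (SE 0.39, unadjusted p = 0.038). Of 10 measured genes of ligand processing 5 were higher and 5 lower, 0 were called and 1 had an unadjusted p under 0.05, with a median log2 fold change of 0.01 beside -0.00 over all human genes.

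PGF (ENSG00000119630), a ligand of VEGFR1, was close to the limit of counting in the human table, with 37, 12 and 48 counts in MBZ_254, MBZ_257 and MBZ_259 and 25, 21 and 26 counts in NC10, NC4 and NC9. These counts correspond to 1.51, 0.371 and 1.33 CPM in the Zelnorm tumours and 0.949, 0.812 and 0.653 CPM in the controls. Zelnorm tumours lay on both sides of the controls. The log2 fold change was 0.41, with a 95% interval of -0.66 to 1.48 that spans changes of either sign. It was 0.10 without MBZ_254, 0.20 without MBZ_259, 0.27 without NC9 and 0.82 without MBZ_257, and 0.19 by limma-voom.

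Host Vegfa (ENSMUSG00000023951; GRCm38 chromosome 17 from 46016993 to 46032369, minus strand) was at 169.7 CPM in MBZ_254, 135 CPM in MBZ_257 and 81.0 CPM in MBZ_259, against 107 CPM in NC10, 121 CPM in NC4 and 105 CPM in NC9. As in the human table, MBZ_254 was the highest tumour, MBZ_259 the lowest and the controls lay between them. The log2 fold change was 0.21 (SE 0.26, 95% interval -0.39 to 0.81; edgeR adjusted p = 1.00), and without MBZ_254 it was -0.06. The response of Vegfa minus that of VEGFA was 0.08 on the log2 scale (SE 0.20, 95% interval -0.37 to 0.54; edgeR interaction term with the library as a block, adjusted p = 1.00). Of 11145 same-symbol pairs 0 were called (0%; 178 or 1.6% at an unadjusted p under 0.05; limma-voom called 0), and among the VEGF pairs VEGFC had the smallest p, with a difference of -0.32 (95% interval -0.89 to 0.25).

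Human VEGFA and mouse Vegfa shared their highest and their lowest tumour with the mean centred log2 CPM of the hypoxia targets of their own table, but not with their summed CPM. Centred on the mean of the 6 tumours, VEGFA lay at 0.75 in MBZ_254, -0.17 in MBZ_257 and -0.49 in MBZ_259, and at 0.01, 0.23 and -0.32 in NC10, NC4 and NC9 (log2 CPM). The mean of 19 human hypoxia targets lay at 0.45, 0.11 and -0.33 in the Zelnorm tumours and at -0.20, 0.20 and -0.23 in the controls in the same order. Both were highest in MBZ_254 and lowest in MBZ_259, and the groups overlapped. Vegfa and the mean of 20 mouse hypoxia targets were likewise highest in MBZ_254, at 0.54 and 0.54, and lowest in MBZ_259, at -0.53 and -0.40, while in MBZ_257 Vegfa lay at 0.21 and the targets at -0.06. By summed CPM, in which abundant genes weigh most, the human targets were highest in NC4 (7618) and lowest in NC10 (5422). The summed mouse targets were highest in MBZ_257 (4213) and lowest in NC10 (3032). These are descriptions of 6 libraries, whose genes share depth and scaling.

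**Figure D2:**
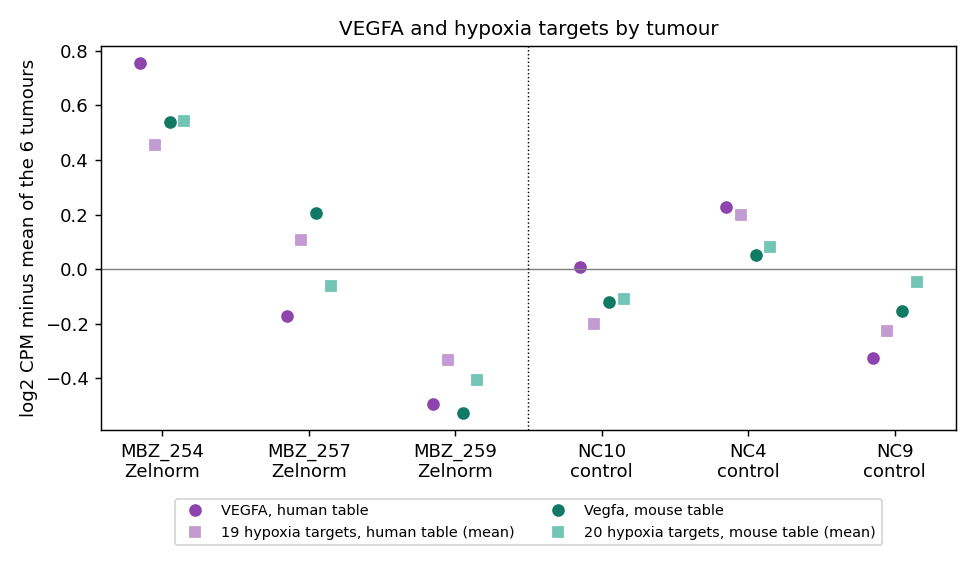
Log2 CPM minus its mean over the 6 tumours for VEGFA and Vegfa (circles) and the mean of the hypoxia targets of the same table (squares), by tumour, Zelnorm left of the dotted line and control right of it. MBZ_254 lies highest and MBZ_259 lowest in all 4 series.

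All 19 measured human hypoxia targets had a log2 fold change above 0 (median 0.15), where 49.1% of all tested human genes did, but 0 were called and 0 had an unadjusted p under 0.05. Without MBZ_254 10 of 19 were above 0, with a median of 0.01. ANKRD37 (log2 0.64, SE 0.35), KDM3A, a histone demethylase (0.21, SE 0.15), and LDHA, lactate dehydrogenase (0.16, SE 0.13), had the smallest p. CA9, the hypoxia-induced carbonic anhydrase, had at most 2.77 counts and was not tested. Among mouse genes 15 of 20 targets were above 0 (median 0.21, beside 0.02 over all mouse genes), with 0 called, and without MBZ_254 9 of 20 were. Of the regulators of the pathway 3 of 8 were above 0, with a median log2 fold change of -0.00. With 1 tumour left out this ran from 1 of 8 without MBZ_254 to 7 of 8 without NC4. HIF1A, the oxygen-regulated subunit, was at 311 ± 46.1 CPM in Zelnorm tumours and 329 ± 48.1 CPM in control tumours, and EGLN1, the prolyl hydroxylase that marks it for degradation, at 103 ± 5.38 and 101 ± 3.66 CPM.

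Set against the hypoxia targets, VEGFA again overlapped between the groups. Its log2 CPM minus the mean of the 19 targets was 3.39 in MBZ_254, 2.81 in MBZ_257 and 2.93 in MBZ_259, against 3.30 in NC10, 3.12 in NC4 and 2.99 in NC9. The groups overlapped, with a difference of -0.09 (two-sided exact permutation test, p = 0.7, where 0.1 is the lowest attainable), and of 0.025 without MBZ_257. Over the 6 tumours, the genes closest to VEGFA in centred log2 CPM among 10828 human genes with at least 10 CPM were MXI1, KCTD11, IRS2 and FGF11. Their root mean square differences from VEGFA were 0.09, 0.10, 0.11 and 0.12, where VEGFA itself varied by 0.41.

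Nearly all counts of the VEGFA pair lay in the human table. The mouse share of VEGFA plus Vegfa counts was 3.92% in MBZ_254 (95% Wilson interval 3.72 to 4.13). It was 3.11% in MBZ_257 (interval 2.90 to 3.34) and 3.38% in MBZ_259 (interval 3.14 to 3.63). Control tumour NC10 had 3.11% (interval 2.88 to 3.35), NC4 had 3.76% (interval 3.529 to 4.002) and NC9 had 3.71% (interval 3.49 to 3.94). The groups overlapped, and the difference of -0.05 percentage points lay within the spread (two-sided exact permutation test, p = 1, lowest attainable 0.1). It was above 0 without MBZ_257 (0.127), NC4 (0.063) or NC9 (0.038). Scaled to the CPM of each table, the difference was 0.75 points. Intervals cover counting error only. The share lay between 3.11% and 3.92%, and the mouse share of all named counts between 15.1% and 23.4%. Both shares were highest in MBZ_254, followed by NC4. MBZ_257 had the lowest share of all named counts and, with NC10, the lowest of the VEGFA pair. The sources used here do not say how reads were divided between the tables. For comparison, chosen after its values were seen, the mouse table held 9.05% to 10.2% of the KRT8 pair and 0 to 0.0370% of the EPCAM pair, genes of epithelium. For the 7 epithelial pairs summed, its share was 4.90% to 5.79%. It was 0.0553% to 0.342% for CDH1, 0.901% to 1.45% for KRT18, 4.08% to 4.68% for KRT19 and 4.02% to 9.20% for EGFR. KRT5, with at most 6 human counts, had 59.2% to 93.8%. Whether human reads were counted for Vegfa was not tested.

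The other pairs divided differently. The mouse share was 15.7% to 18.9% for VEGFB, 20.8% to 35.7% for VEGFC and 47.3% to 81.9% for PGF. For receptors it was 79.9% to 87.3% for KDR, 97.5% to 99.5% for FLT1, 25.6% to 53.7% for FLT4, 17.3% to 35.8% for NRP1 and 87.9% to 91.2% for NRP2. Ligand counts thus lay mostly in the human table for VEGFA, VEGFB and VEGFC, and counts of KDR, FLT1 and NRP2 in the mouse table. All named counts also lay mostly in the human table, with a mouse share of 15.1% to 23.4%. Beside that share VEGFA was low and VEGFB lay within its range. VEGFC lay above the share of all named counts in every tumour, as in NC10 with 32.2% beside 19.3%. For Flt4 and Nrp1 the lowest share was that of MBZ_257, which also had the lowest mouse share of all named counts.

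**Figure D3:**
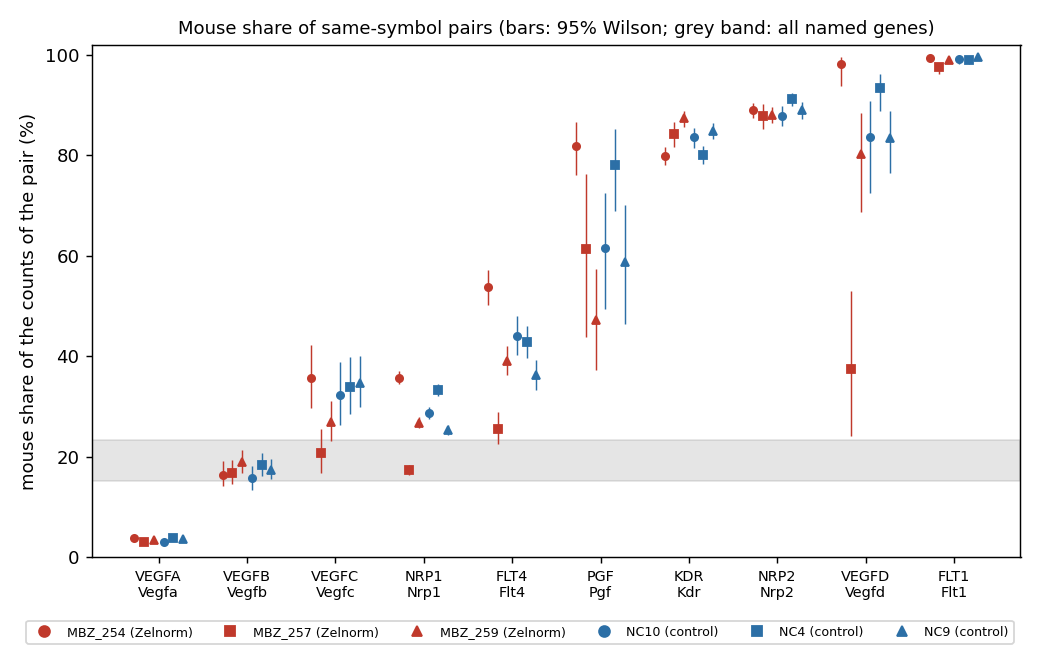
Mouse share of the summed counts of each same-symbol pair in percent, by tumour (Zelnorm red, control blue), with 95% Wilson intervals; the grey band spans the mouse share of all named genes, 15.1% to 23.4%. The VEGFA pair lies at 3.11% to 3.92% and the FLT1 pair at 97.5% to 99.5%.

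All 5 host receptors were lowest in the Zelnorm tumour MBZ_257, and each was highest in MBZ_254 or NC4. This was not particular to the receptors. By mean centred log2 CPM, the endothelial, pericyte, fibroblast and macrophage markers read below were also lowest in MBZ_257, whereas adipocyte and skeletal muscle markers were not. How many of all mouse genes were lowest there was not counted. The 250 bases before the RefSeq start of the receptor tyrosine kinase genes Kdr and Flt1 (GRCm38.p6) are shown because these genes mark endothelium and ETS factors, whose core site is GGAA, are known regulators of endothelial genes. Capitals mark GGAA on either strand (GGAA or TTCC), Kdr is chr5:75978456-75978705 and Flt1 chr5:147726012-147726261, both on the minus strand and written 5′ to 3′.
Kdr: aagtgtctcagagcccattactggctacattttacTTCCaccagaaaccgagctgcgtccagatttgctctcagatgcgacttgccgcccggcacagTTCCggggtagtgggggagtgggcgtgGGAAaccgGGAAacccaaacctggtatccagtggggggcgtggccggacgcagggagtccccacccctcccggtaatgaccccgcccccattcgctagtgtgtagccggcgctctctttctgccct
Flt1: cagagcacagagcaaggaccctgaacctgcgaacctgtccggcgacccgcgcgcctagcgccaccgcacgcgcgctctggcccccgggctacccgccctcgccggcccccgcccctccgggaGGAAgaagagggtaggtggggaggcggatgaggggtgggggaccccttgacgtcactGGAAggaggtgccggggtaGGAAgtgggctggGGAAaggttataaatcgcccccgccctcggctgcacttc
Each window holds 4 copies, and 33.4% of 32851 mouse windows of the same length hold at least as many (median 3), so the count does not set these 2 genes apart, and a match is not a bound site.

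Kdr (ENSMUSG00000062960; GRCm38 chromosome 5 from 75932827 to 75978458, minus strand), the main signalling receptor, was at 183 CPM in MBZ_254, 131 CPM in MBZ_257 and 159 CPM in MBZ_259, against 171 CPM in NC10, 219 CPM in NC4 and 164 CPM in NC9. A pair of Zelnorm tumours lay below all controls and MBZ_254 above 2 of them. The mean was 158 ± 26.0 CPM in Zelnorm tumours and 185 ± 29.9 CPM in control tumours (SD, n = 3 each), a log2 fold change of -0.23 (SE 0.19, 95% interval -0.67 to 0.22; edgeR adjusted p = 1.00). It stayed below 0 with each tumour left out, from -0.36 without MBZ_254 to -0.09 without NC4. In bulk tumours, fewer endothelial cells and less RNA per cell cannot be told apart.

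Flt1 (ENSMUSG00000029648; GRCm38 chromosome 5 from 147561604 to 147726011, minus strand) was at 179 CPM in MBZ_254, 135 CPM in MBZ_257 and 140 CPM in MBZ_259, against 137 CPM in NC10, 156 CPM in NC4 and 139 CPM in NC9. MBZ_254 stood above the other tumours, which overlapped. The log2 fold change was 0.07 (SE 0.17, 95% interval -0.32 to 0.46; edgeR adjusted p = 1.00) and turned to -0.08 without MBZ_254.

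Flt4 (ENSMUSG00000020357; GRCm38 chromosome 11 from 49609263 to 49652739, plus strand), the receptor of VEGF-C, was at 56.4, 34.8 and 48.6 CPM in MBZ_254, MBZ_257 and MBZ_259, against 46.2, 49.5 and 40.1 CPM in NC10, NC4 and NC9. Zelnorm tumours lay on both sides of the controls, and the log2 fold change was 0.04 (SE 0.20, 95% interval -0.42 to 0.51). Flt4 is best known as a receptor of lymphatic endothelium. The lymphatic regulator Prox1 had 2, 1 and 13 counts in the Zelnorm tumours and 6, 7 and 10 in the controls, and the lymphatic chemokine Ccl21a had 0 in all 6. Flt4 itself had 188 to 444 counts. Its log2 fold change was -0.12 without MBZ_254 and -0.04 without NC9. Of the lymphatic list 5 of 8 genes were measured. Their summed CPM was 317, 206 and 244 in MBZ_254, MBZ_257 and MBZ_259, against 235, 319 and 192 in NC10, NC4 and NC9. Of these 5 genes 3 had a log2 fold change above 0 and 2 below (median 0.07), and 0 were called. Without MBZ_254 1 of 5 was above 0 (median -0.68), and likewise without NC9 (median -0.19).

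Nrp1 (ENSMUSG00000025810; GRCm38 chromosome 8 from 128358604 to 128503363, plus strand), a co-receptor of VEGFR2, was at 238, 187 and 213 CPM in MBZ_254, MBZ_257 and MBZ_259, against 236, 238 and 209 CPM in NC10, NC4 and NC9. Only MBZ_257 lay below the controls, and the log2 fold change was -0.10 (SE 0.16, 95% interval -0.48 to 0.28). Nrp2 (ENSMUSG00000025969; GRCm38 chromosome 1 from 62703285 to 62818695, plus strand), a co-receptor of VEGFR3, was at 194.5, 111 and 159 CPM in the Zelnorm tumours and 152, 193 and 129.7 CPM in the controls, in the same order. MBZ_257 was below and MBZ_254 above all controls, so the groups overlapped, and the log2 fold change was -0.03 (SE 0.24, 95% interval -0.59 to 0.53; edgeR adjusted p = 1.00 for both neuropilins). Without MBZ_257 it was 0.17 and without NC4 0.14, and that of Nrp1 without MBZ_257 was 0.00055.

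**Figure D4:**
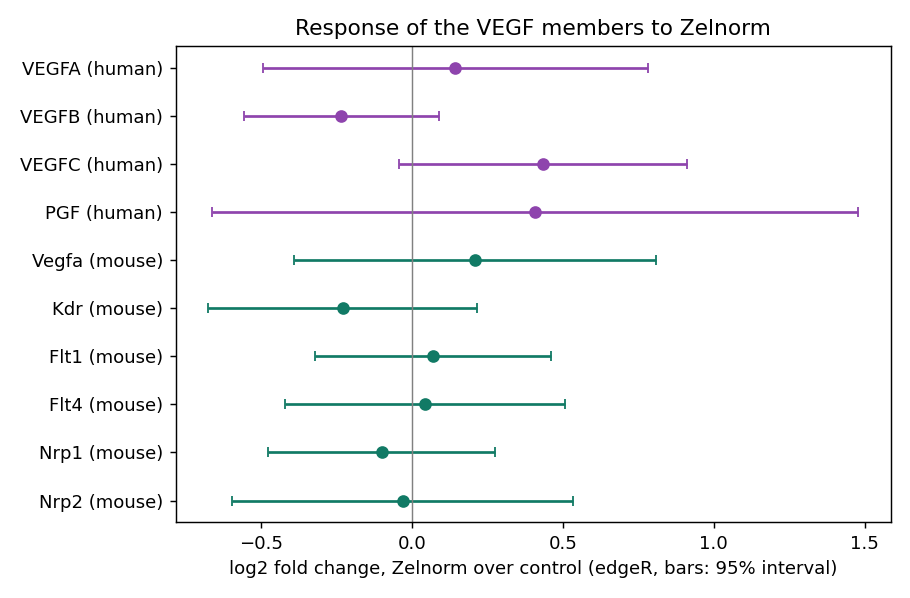
Log2 fold change of Zelnorm over control with its 95% interval for the 10 members (human table purple, mouse table green), from edgeR. All 10 intervals include 0, and the widest is that of PGF (-0.66 to 1.48).

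Per kilobase of annotated exon (GENCODE vM21), the levels of the host receptors ran from Nrp1 over Kdr, Nrp2 and Flt1 to Flt4. Nrp1 averaged 22.5 ± 2.15 CPM per kb over the 6 tumours, Kdr 18.98 ± 3.23, Nrp2 13.2 ± 2.82, Flt1 10.9 ± 1.27 and Flt4 5.58 ± 0.92 CPM per kb (SD, n = 6). Each gene lay above the next in all 6 tumours except that Flt1 was above Nrp2 in MBZ_257. Between Flt1 and Flt4 the ranges over tumours did not overlap, whereas those of Nrp1, Kdr, Nrp2 and Flt1 overlapped with their neighbours. Vegfa averaged 28.0 ± 7.07 and Vegfb 15.2 ± 2.44 CPM per kb, both above Vegfc (4.90 ± 0.65), Vegfd (4.51 ± 2.85) and Pgf (2.86 ± 2.31) in all tumours. Vegfc, Vegfd and Pgf overlapped in range. The exon length counts all annotated exons, so a gene with long rare exons comes out low.

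The endothelial markers were lowest in the same tumour as the receptors. The summed CPM of 20 markers such as Pecam1 and Cdh5 was 1962 in MBZ_254, 1146 in MBZ_257 and 1707 in MBZ_259. It was 1449 in NC10, 2213 in NC4 and 1595 in NC9, so MBZ_257 was again the lowest, and NC4 was the highest. Of the receptors, Kdr and Nrp1 were also highest in NC4, but Flt1, Flt4 and Nrp2 were highest in MBZ_254. None of the 20 was at 0 in all tumours, 17 of 20 had a log2 fold change below 0 (median -0.14), where 53.9% of all tested mouse genes lay above 0, and 0 were called. Without MBZ_257 the median was 0.05 with 12 of 20 above 0, and without NC4 it was 0.03 with 13 of 20 above 0. Tek, the angiopoietin receptor, had the smallest p, at 28.6 ± 6.96 CPM in Zelnorm tumours and 44.7 ± 13.0 CPM in control tumours (log2 -0.64, SE 0.27, unadjusted p = 0.0427; edgeR adjusted p = 1.00).

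Relative to these markers Kdr overlapped between the groups. Its log2 CPM minus the mean of the 20 was 1.47 in MBZ_254, 1.80 in MBZ_257 and 1.52 in MBZ_259, against 1.77 in NC10, 1.605 in NC4 and 1.57 in NC9. The difference of -0.05 lay within the spread (two-sided exact permutation test, p = 0.6, lowest attainable 0.1), and was 0.0092 without MBZ_254 and 0.0064 without NC10. Flt1 gave 1.44, 1.84 and 1.34 in the Zelnorm tumours and 1.44, 1.12 and 1.33 in the controls. Its difference of 0.24 was not distinguishable from 0 either (two-sided exact permutation test, p = 0.4), and was 0.089 without MBZ_257 and 0.149 without NC4. MBZ_257, the tumour with the lowest endothelial marker level, had the highest value of both ratios. A low marker mean raises such a ratio by construction, so this is not a separate observation. The genes closest to Kdr in centred log2 CPM over the 6 tumours, among 9755 mouse genes with at least 10 CPM, were Aldh16a1, Kif13b, Tns2 and Srebf1, with root mean square differences of 0.04, 0.04, 0.04 and 0.05 where Kdr itself varied by 0.22.

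**Figure D5:**
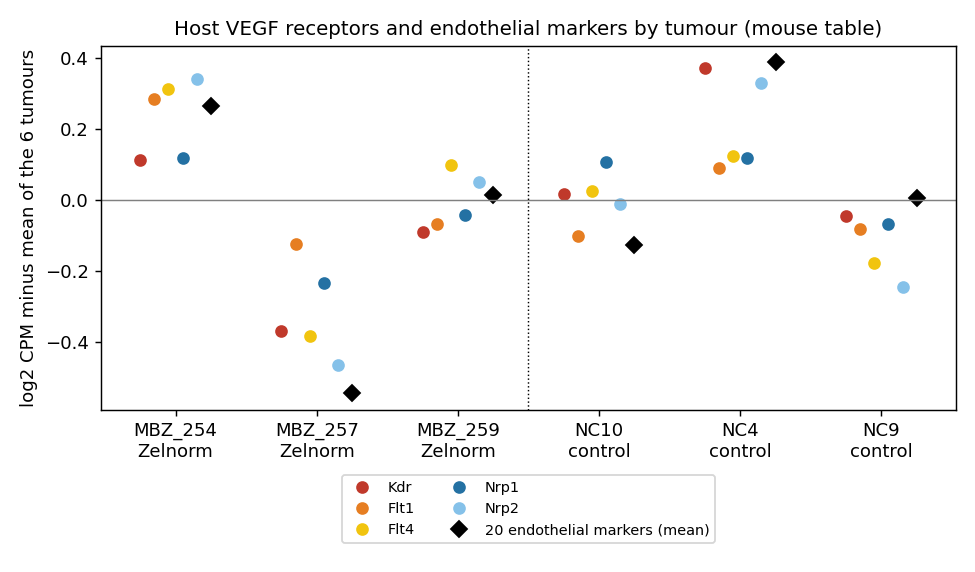
Log2 CPM minus its mean over the 6 tumours for the 5 host receptors (circles) and the mean of 20 endothelial markers (black diamonds), by tumour, Zelnorm left of the dotted line and control right of it. Receptors and markers are all below 0 in MBZ_257, and all above 0 in MBZ_254 and NC4.

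Other host tissues were distributed over the tumours in different ways. The summed CPM of 10 fibroblast markers was 31450 in MBZ_254, 13423 in MBZ_257 and 27909 in MBZ_259, against 26257 in NC10, 42577 in NC4 and 25595 in NC9, lowest and highest in the same tumours as Kdr. All 10 had a log2 fold change below 0 (median -0.36), 6 of 10 without MBZ_257. The summed CPM of 10 adipocyte markers was 271, 143 and 121 in the Zelnorm tumours and 251, 697 and 423 in the controls, with 10 of 10 below 0 (median -1.66), 7 of them at an unadjusted p under 0.05 and 0 called. The adipocyte sum was lowest in MBZ_259. Macrophages can carry Flt1 and Nrp1. Their markers summed to 4852, 5122 and 5079 CPM in the Zelnorm tumours and 4809, 4393 and 3672 CPM in the controls, with 9 of 12 above 0. The sum was highest in MBZ_257, where the receptors were lowest. By the mean of their centred log2 CPM, however, the macrophage markers were also lowest in MBZ_257, at -0.30. For pericytes, the mural cells of small vessels, the sums were 2193, 1436 and 2242 CPM, against 2018, 1981 and 1735 CPM in the controls, with 8 of 10 above 0, 3 of 10 without MBZ_254 and 4 of 10 without NC9. Skeletal muscle was the most uneven of these tissues, with summed CPM of 74.6 in MBZ_254, 147 in MBZ_257 and 6921 in MBZ_259, against 428 in NC10, 2892 in NC4 and 2268 in NC9. Of its 10 markers 8 were above 0 (median 0.43), 0 without MBZ_259 and 2 without NC10. The part of these tissues in the levels of Vegfa, Kdr and the other receptors was not tested.

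Genes downstream of the receptors also showed no called change. Of 17 measured genes of VEGF receptor signalling 8 had a log2 fold change above 0 and 9 below (median -0.04), with 0 called. Grb2, an adaptor, was at 174 ± 20.4 CPM in Zelnorm tumours and 148 ± 31.0 CPM in control tumours, and Plcg1, the phospholipase bound by VEGFR2, at 102.3 ± 4.85 and 113.3 ± 4.62 CPM. Of 16 genes that VEGF induces or that mark endothelial tip cells 13 were above 0 (median 0.16), and without MBZ_254 6 of 16 were, with a median of -0.06. Cxcr4, a chemokine receptor of tip cells and leukocytes, was at 73.2, 54.8 and 78.1 CPM in MBZ_254, MBZ_257 and MBZ_259, against 46.8, 50.6 and 43.1 CPM in NC10, NC4 and NC9. Its groups did not overlap (log2 0.55, SE 0.17, unadjusted p = 0.0125; edgeR adjusted p = 1.00). Aplnr, the apelin receptor of sprouting vessels, had a log2 fold change of -0.63 (SE 0.29).

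Semaphorins, which compete with VEGF for neuropilins, gave mixed values. Among mouse genes 5 of 12 semaphorin and plexin genes were above 0 and 7 below, with 2 of 12 above 0 without MBZ_254 and 1 of 12 without NC9. Sema3c was at 25.9 ± 8.20 CPM in Zelnorm tumours and 41.9 ± 13.3 CPM in control tumours (log2 -0.69, SE 0.29, unadjusted p = 0.0446). Among human genes 4 of 6 class 3 semaphorins were above 0, and 2 of 6 without MBZ_254. SEMA3B was at 42.6, 33.0 and 35.6 CPM in MBZ_254, MBZ_257 and MBZ_259, against 28.0, 28.8 and 31.4 CPM in NC10, NC4 and NC9. Its groups did not overlap (log2 0.33, SE 0.13, unadjusted p = 0.032). By edgeR, 0 of the semaphorin and plexin genes of either table were called.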

How the data were processed

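RNA-seq libraries from 6 tumours were analysed. The authors deposited estimated counts for each gene (38.0% of human and 27.0% of mouse values above 0 were not whole), in one human and one mouse table. The builds GRCh38 and GRCm38 and the tools StringTie, HISAT2, edgeR and DESeq2 are named, without version or role, per the submitters' processing notes. The columns share a prefix with the titles of a group but have a number found in no label, so libraries were tied to a group only.

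The deposited estimated counts were rounded, and rows without a gene name (574 human, 856 mouse; at most 0.518% of a library) left out. The tests had been planned for counts of this kind. Each table was fitted alone with edgeR 4.0.16 in R 4.3.3 (filterByExpr, TMM, glmQLFit, glmQLFTest, two-sided), with p-values adjusted by Benjamini-Hochberg over all tested genes. SE was derived from the F statistic. Log2 CPM used a prior count of 2. Alternatives were RLE and upper-quartile scaling, no count filter, DESeq2 1.42.0, limma-voom (limma 3.58.1), each library left out and, for mouse, the library size of both tables. On simulated data with 200 genes changed 2-fold, the fit recovered 98% in the human (18820 genes) and 94% in the mouse table (14459 genes). The spread between simulated libraries was a fixed setting, not estimated from these tumours, and genes with few counts were not changed. These percentages therefore do not give the power for the VEGF genes.

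Members and lists were chosen with earlier results of these data known. The rule allowed naming up to 3 genes with the smallest p per list, any of a list of up to 8, and 4 genes by likeness, and not all of them are named; any further gene was picked with its values in view. Mouse coordinates are from GENCODE vM21 (GRCm38); human coordinates are not given.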

Additional observations from a re-analysis of the deposited data

How the results depend on the processing

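No paired analysis was possible because the replicate numbers of the labels are not in the columns. Without the count filter edgeR called 61 human genes, 2 mouse genes and 1 same-symbol pair, DESeq2 called 1 human and 6 mouse genes, and none of these calls was a member. With 1 library left out, 0 to 0 human genes, 0 to 0 mouse genes and 0 to 2 pairs were called, the 2 without MBZ_259. No member was called under any alternative run, and 0 members changed sign under another tool, scaling or filter. For 6 of the 10 members the log2 fold change turned sign with 1 library left out: VEGFA ran from -0.31 to 0.38, Vegfa from -0.055 to 0.45, Flt1 from -0.078 to 0.16, Flt4 from -0.12 to 0.23, Nrp1 from -0.20 to 0.00055 and Nrp2 from -0.24 to 0.17. The difference of Kdr relative to endothelial markers ran from -0.15 to 0.0092, that of VEGFA relative to hypoxia targets from -0.26 to 0.025, and that of the mouse share of VEGFA counts from -0.28 to 0.13 percentage points; on the CPM of each table the last was 0.75 points. Where signs turned, the cause was not tested. The number of tumours, 3 a group, limits the precision: the narrowest 95% interval of a member is that of VEGFB, from -0.56 to 0.09, and PGF had at most 48 counts in a library.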

Other observations

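The human table also held VEGF receptor genes outside the members. NRP1 was the most even of them, at 137 CPM in MBZ_254, 149 CPM in MBZ_257 and 141 CPM in MBZ_259, against 139 CPM in NC10, 142 CPM in NC4 and 142 CPM in NC9. FLT4 was at 15.6, 16.9 and 18.3 CPM in the Zelnorm tumours and 13.8, 19.7 and 16.3 CPM in the controls. NRP2 was at 7.73, 2.56 and 5.23 CPM, against 4.97, 5.57 and 3.71 CPM in the controls. KDR was at 14.8, 4.11 and 5.59 CPM, against 7.97, 16.2 and 6.75 CPM, and was lowest in MBZ_257 and highest in NC4, as was Kdr in the mouse table. FLT1 had 8, 19 and 12 counts in the Zelnorm tumours and 8, 13 and 7 in the controls and was not tested. None of the 4 tested receptor genes was called by edgeR, and 0 had an unadjusted p under 0.05. The human table held 12.7% to 20.1% of the KDR pair. Of endothelial genes chosen after their values were seen, it held 0.307% to 1.41% of the CDH5 pair and 12.9% to 16.3% of the TEK pair. For the 20 endothelial marker pairs summed, its share was 6.65% to 15.5%, and the highest single pair was EGFL7, at 48.7% to 66.8%. Whether mouse reads were counted as human there was not tested.

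Host Vegfd, a ligand of VEGFR3, was at 14.1 CPM in MBZ_254, 2.78 CPM in MBZ_257 and 5.60 CPM in MBZ_259, against 8.18 CPM in NC10, 21.9 CPM in NC4 and 12.6 CPM in NC9 (log2 -0.91, SE 0.58). Its log2 fold change was -1.75 without MBZ_254, -0.52 without MBZ_257 and -0.46 without NC4. Host Pgf was at 21.2 CPM in MBZ_254, above the 3.52 and 4.91 CPM of MBZ_257 and MBZ_259 and the 6.41, 9.72 and 4.02 CPM of NC10, NC4 and NC9 (log2 0.57, SE 0.67). Without MBZ_254 the log2 fold change of Pgf was -0.67, without NC9 0.30, without NC4 0.94, without MBZ_257 0.98 and without MBZ_259 0.90. Vegfc and Vegfb of the host had log2 fold changes of 0.10 and -0.08. Among other angiogenic ligands of the human table, 9 of 16 were above 0, and 6 of 17 tested without MBZ_254. CXCL8, a chemokine that also acts on endothelium, was at 17.8, 10.1 and 10.7 CPM in the Zelnorm tumours and 8.54, 7.42 and 6.45 CPM in the controls (log2 0.78, SE 0.24, unadjusted p = 0.0078). Of 8 measured inhibitors of vessel growth 7 were below 0 (median -0.13), and without MBZ_257 3 of 8 were. All edgeR adjusted p-values of these genes were 1.00.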
